A study of Homo sapiens with 4 samples.

Results

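Transcripts of 9 genes of the tight junction were followed in MCF10A cells with and without overexpression of HSF1. The genes were taken by name from a list, as 4 claudins (CLDN1, CLDN4, CLDN7 and CLDN12), occludin (OCLN), tricellulin (MARVELD2), junctional adhesion molecule A (F11R), ZO-1 (TJP1) and cingulin (CGN). All 9 were found among the 63856 genes of the count table by their Ensembl identifiers, and 8 of them were among the 15830 genes that could be tested. OCLN had too few reads. MCF10A is a non-tumorigenic human mammary epithelial line grown with horse serum, insulin, hydrocortisone, EGF and cholera toxin. Unmodified wild type (WT) cells were compared with cells that stably carried the human HSF1 coding sequence in the lentiviral vector pLVX (HSF1-pLVX), with 2 libraries of total RNA depleted of ribosomal RNA per variant. The transduced cells had been selected with puromycin and the WT cells had not, and cells with the empty vector were not analysed here. An effect of HSF1 and an effect of transduction, selection or separate culture therefore cannot be told apart.

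Tight junctions seal the space between neighbouring epithelial cells near their apical side. Claudins form the strands of the seal and set which ions pass, while the four-pass membrane proteins occludin and tricellulin join these strands, tricellulin mainly where 3 cells meet. Junctional adhesion molecules are immunoglobulin-like proteins beside the strands. On the cytoplasmic face, the ZO proteins and cingulin form a plaque that ties the membrane proteins to actin and to signalling proteins. In mammary epithelium these junctions separate the lumen of the gland from the tissue around it.

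The libraries held 18688109 to 24184285 counts. HSF1, the gene carried by the vector, was counted at 200.4 and 189.2 CPM (read counts scaled with TMM factors to a common library size) in WT replicates 1 and 2, and at 982 and 999 CPM in HSF1-pLVX cells. All 7 epithelial markers listed (KRT5, KRT14, KRT8, KRT18, TP63, CDH1 and EPCAM) were above 3 counts in every library, and their summed level was 8481 to 8529 CPM in WT and 5779 to 6152 CPM in HSF1-pLVX cells. They did not move together: KRT5 rose from a mean of 2113 to 4592 CPM and TP63 from 9.69 to 108 CPM, while KRT8, KRT14, KRT18, CDH1 and EPCAM were lower. Of 8 fibroblast markers, COL1A2, COL3A1, LUM and THY1 did not exceed 3 counts in any library. The list summed to 7.88 to 10.9 CPM in WT and 13.9 to 15.0 CPM in HSF1-pLVX cells. Most of the WT sum came from COL1A1, which was not called (mean 8.79 CPM in WT and 9.96 in HSF1-pLVX cells, edgeR adjusted p = 0.287). DCN rose from 1 and 3 counts in WT to 94 and 87 in HSF1-pLVX cells, and PDGFRB from 2 and 0 to 10 and 5. PDGFRA went the other way, from 6 and 4 counts to 1 and 1. The 6 endothelial markers summed to 2.10 to 3.14 CPM in WT and 13.6 to 14.7 CPM in HSF1-pLVX cells, with most of it from KDR. None was at 3 counts or fewer in all libraries. At low counts, CDH5 (8 and 4 in WT, 5 and 1 in HSF1-pLVX cells) and VWF (7 and 4, then 6 and 4) were lower in mean CPM. PECAM1, TEK and CLDN5, also at low counts, were higher in mean CPM. Of 5 blood cell markers, 4 did not exceed 3 counts in any library, and their sum stayed between 0.107 and 0.484 CPM. The part of the lower epithelial marker sum or of the higher fibroblast and endothelial marker sums in the results below was not tested.

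Of the 8 genes tested, 6 were lower in HSF1-pLVX cells and the other two, CLDN12 and F11R, passed the test in neither direction. Across all tested genes 32.7% were lower and 65.1% were called in either direction. CGN, CLDN1, CLDN7, CLDN4 and MARVELD2 were at least 2-fold lower, a change that 14.0% of all tested genes showed. The median log2 fold change was -1.48 over the 8 genes and 0.02 over all tested genes. Calls required an adjusted p of 0.05 or less in the quasi-likelihood test of edgeR with the replicate number as a block and a Benjamini-Hochberg adjustment over all tested genes. In bulk RNA, fewer cells that express a gene and less RNA per cell cannot be told apart. The study calls the 2 libraries of a variant biological replicates, but neither it nor the labels say how separate the cultures were. With the block, the p-values rest on how far the ratios of the 2 replicate pairs differ, not on the whole spread between libraries of a variant. This spread is shared over many genes at a like level, and is not that of each gene alone. The replicate numbers are not shown to pair the libraries. Without the block the edgeR adjusted p was 9.06e-11 for CGN and 0.0532 for TJP1.

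**Figure D1:**
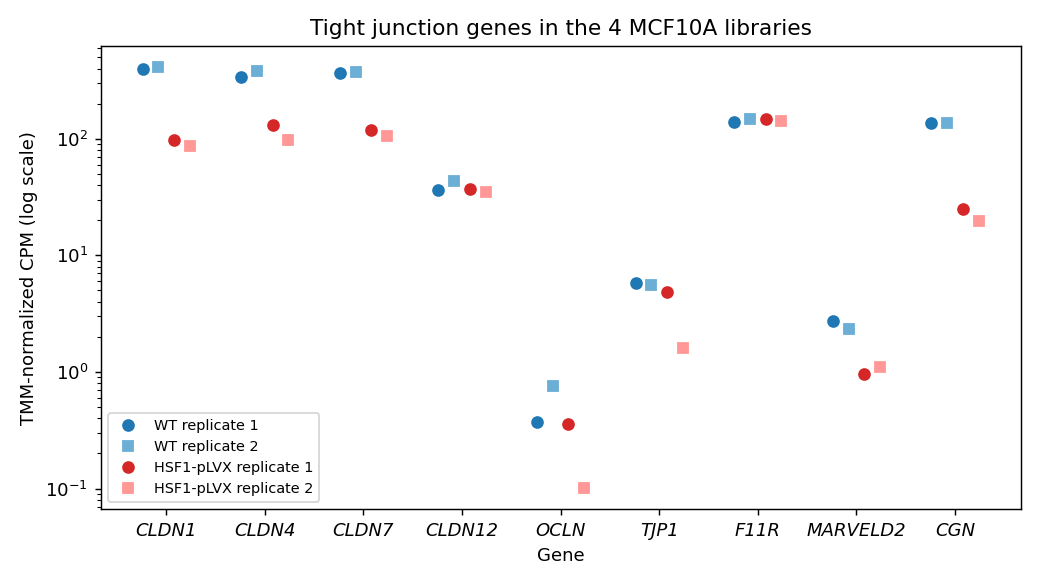
Level of each of the 9 genes in the 4 libraries, on a log axis in CPM (TMM-scaled counts at a common library size). Each point is 1 library of WT or HSF1-pLVX cells. CLDN1, CLDN4, CLDN7 and CGN separate widely between the variants, and CLDN12 and F11R overlap.

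Among the claudins, CLDN1, a sealing claudin required for the epidermal barrier, lies on chromosome 3 from 190305701 to 190322475 on the minus strand (hg38, as all positions here). It was counted at 397 and 412 CPM in WT replicates 1 and 2, and at 98.2 and 86.3 CPM in HSF1-pLVX replicates 1 and 2. Both HSF1-pLVX libraries lay below both WT libraries, and the mean fell from 405 ± 10.6 to 92.3 ± 8.41 CPM (SD, n = 2). The log2 fold change was -2.13 (SE 0.124, 95% interval -2.38 to -1.89, edgeR adjusted p = 1.64e-64). HSF1-pLVX cells thus had 22.8% of the WT level.

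CLDN7, found along the lateral membrane as well as in the junction, lies on chromosome 17 from 7259903 to 7263983 on the minus strand. Its level was 368 and 377 CPM in WT cells and 119 and 106 CPM in HSF1-pLVX cells. The 2 variants did not overlap. The log2 fold change was -1.73 (SE 0.121, 95% interval -1.97 to -1.49, edgeR adjusted p = 2.03e-44), which left 30.2% of the WT level. Of its counted exon bases, 12.3% are shared with the exons of other genes, mainly ELP5 (315 and 341 counts in WT, 575 and 452 in HSF1-pLVX cells), and how reads on shared bases were assigned is not stated.

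CLDN4, a claudin bound by a clostridial enterotoxin, lies on chromosome 7 from 73799542 to 73832693 on the plus strand. It was at 341 and 384 CPM in WT cells and at 130 and 97.9 CPM in HSF1-pLVX cells. All HSF1-pLVX values were again below all WT values, but the 2 replicate pairs differed more than for CLDN1 and CLDN7, with log2 ratios of -1.39 in pair 1 and -1.97 in pair 2. The fitted log2 fold change was -1.68 (SE 0.121, 95% interval -1.92 to -1.44, edgeR adjusted p = 4.78e-42).

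CLDN12, an atypical claudin that lacks the PDZ-binding end through which most claudins bind ZO proteins, was the one claudin of the set that was not called. It lies on chromosome 7 from 90383721 to 90513402 on the plus strand. Its level was 36.4 and 43.3 CPM in WT cells and 36.8 and 35.1 CPM in HSF1-pLVX cells. The variants overlapped, since HSF1-pLVX replicate 1 lay above WT replicate 1. The log2 fold change was -0.14 (SE 0.109, edgeR adjusted p = 0.249), and its 95% interval of -0.35 to 0.07 leaves out a change of the size seen for CLDN1, CLDN4 or CLDN7. Exons of other genes, GTPBP10 and CDK14 among them, cover 16.3% of its counted bases.

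Of the proteins that span the membrane beside the claudins, MARVELD2 encodes tricellulin, which sits where 3 cells meet. It lies on chromosome 5 from 69415112 to 69444330 on the plus strand, and was counted 51 and 43 times in the WT libraries and 24 and 22 times in the HSF1-pLVX libraries. In CPM these are 2.72 and 2.31 against 0.956 and 1.11, with no overlap between the variants. The log2 fold change was -1.29 (SE 0.327, 95% interval -1.93 to -0.65, edgeR adjusted p = 0.000188), and the adjusted p was 0.0691 with DESeq2. OCLN, the gene of occludin, lies beside it on chromosome 5 from 69492292 to 69558104 on the plus strand. It had 7 and 14 counts in WT cells and 9 and 2 counts in HSF1-pLVX cells, or 0.373 and 0.754 against 0.359 and 0.101 CPM. On the CPM scale the variants did not overlap, but WT replicate 1 and HSF1-pLVX replicate 1 nearly met, and the gene did not pass the filter on low counts. Without the filter its log2 fold change was -1.20 with an edgeR adjusted p of 0.174. At these low counts OCLN was not called with all 4 libraries, which does not show that it was unchanged.

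F11R encodes junctional adhesion molecule A, which takes part in the first contacts between cells. The gene lies on chromosome 1 from 160995211 to 161021348 on the minus strand. Its level was 140.0 and 147 CPM in WT cells and 148 and 141 CPM in HSF1-pLVX cells. These values overlapped, with a log2 fold change of 0.01 (SE 0.109, edgeR adjusted p = 0.932) and a 95% interval of -0.20 to 0.22. The exons of an unnamed gene, ENSG00000270149, share 36.6% of its counted bases, and that gene was itself counted 2 to 6 times per library.

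Of the plaque proteins, CGN fell furthest among all 9 genes. Cingulin binds ZO proteins and actomyosin. The gene lies on chromosome 1 from 151510510 to 151538692 on the plus strand. It was at 137 and 136 CPM in WT cells and at 24.9 and 19.5 CPM in HSF1-pLVX cells, the widest separation of the set. The mean fell from 136.6 ± 0.60 to 22.2 ± 3.82 CPM (SD, n = 2), a log2 fold change of -2.62 (SE 0.111, 95% interval -2.84 to -2.41, edgeR adjusted p = 2.96e-119), and 16.3% of the WT level was left.

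TJP1 encodes ZO-1, the scaffold to which most claudins bind through their ends. It lies on chromosome 15 from 29699367 to 29968865 on the minus strand. Its main row held only 109 and 103 counts in WT cells and 122 and 32 counts in HSF1-pLVX cells, which are 5.81 and 5.54 against 4.86 and 1.61 CPM. The variants did not overlap, but HSF1-pLVX replicate 1 lay close to WT and replicate 2 far below it. The log2 fold change was -0.87 (SE 0.221, 95% interval -1.30 to -0.43, edgeR adjusted p = 0.000202). The log2 ratios within replicate pairs 1 and 2 were -0.26 and -1.78, both outside this interval. This call rests on HSF1-pLVX replicate 2: without that library, in a fit without the block, the log2 fold change was -0.21 with an adjusted p of 0.361, and without the replicate block in all 4 libraries it was -0.77 with an adjusted p of 0.0532.

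**Figure D2:**
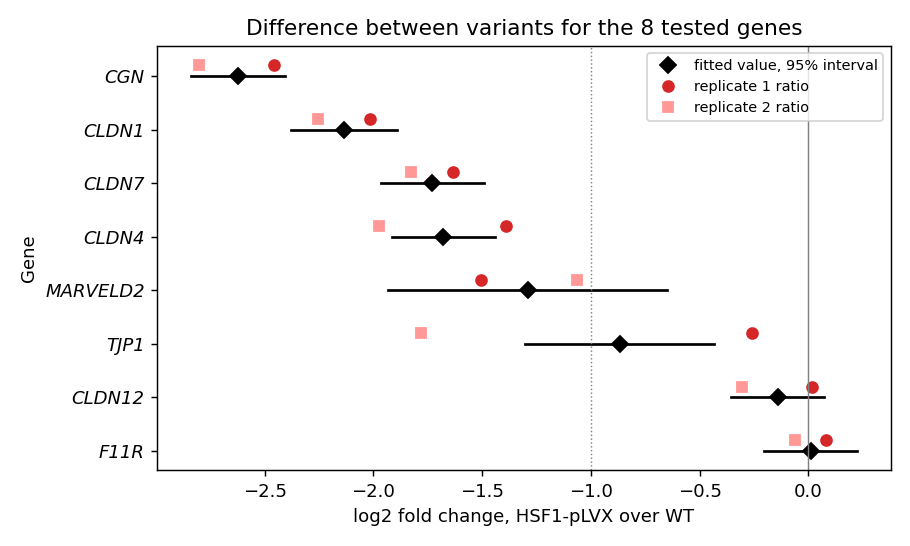
Log2 fold change of HSF1-pLVX over WT cells for the 8 tested genes. Points with bars are the edgeR estimates with their 95% intervals and the small marks are the ratios within replicate pair 1 and pair 2. The 2 pairs lie furthest apart for TJP1, at -0.26 and -1.78.

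Most of the exon sequence of TJP1, MARVELD2 and OCLN, the 3 genes with the fewest counts, is present more than once in hg38. When every stretch of 76 bases, the length of a read, in the counted exons was looked up in hg38 with its additional contigs, a second exact copy was found for 97.6% of the 8790 stretches of TJP1, 95.4% of the 4302 of MARVELD2 and 91.2% of the 6044 of OCLN. For CLDN1, CLDN4, CLDN7, CLDN12 and CGN the share was 0%, and for F11R it was 0.318%. In TJP1 the second copies lay on other contigs and none on the main chromosomes, in MARVELD2 1.26% of stretches had a second copy on the main chromosomes, and in OCLN 60.8% did. How reads with several places in the genome were counted is not stated. The levels of these 3 genes are therefore uncertain, and a low count in these rows is no measure of a low level.

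**Figure D3:**
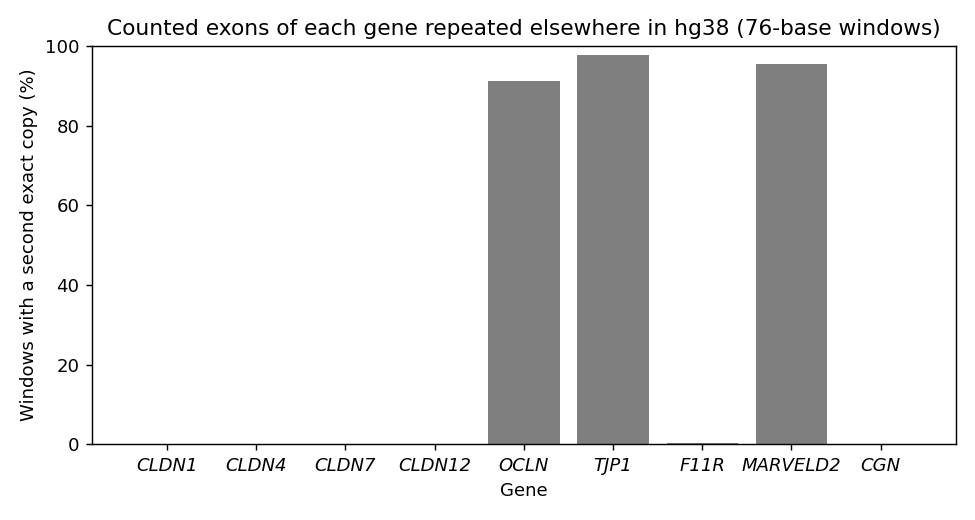
Share of the 76-base stretches in each gene's counted exons that have a second exact copy in hg38, in percent. The bars of TJP1, MARVELD2 and OCLN reach 97.6, 95.4 and 91.2%, and the other 6 genes are at or near 0.

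The count table has a further row for each of these 3 genes on such a contig. The copy of TJP1 on KI270905.1 was counted 147 and 136 times in WT cells and 77 and 60 times in HSF1-pLVX cells. Here both HSF1-pLVX libraries were clearly below WT, with a log2 fold change of -1.32 (SE 0.209, edgeR adjusted p = 1.36e-09). With the rows added together TJP1 was at 13.6 and 12.9 CPM in WT and at 7.93 and 4.63 CPM in HSF1-pLVX cells, a log2 fold change of -1.09 (edgeR adjusted p = 2.09e-10). Added to its row on GL339449.2, MARVELD2 gave -1.32 (edgeR adjusted p = 6.37e-05), while OCLN reached 8 and 16 counts in WT and 11 and 2 in HSF1-pLVX cells and still did not pass the filter. Whether a read that matches both rows of a gene was counted in both is not known. The sums may therefore hold some reads more than once, and their p-values would then be too small.

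The promoters of CLDN1, CGN and CLDN7 are shown because these were the genes that fell furthest among those with unique sequence. They were taken from the RefSeq promoter windows on GRCh38.p14, 250 bases before to 50 bases after a start, which hold 8 of the 9 genes (not F11R). Each window was searched on both strands for a heat shock element of 2 units (GAANNTTC or TTCNNGAA), the site HSF1 is known to bind in its fuller forms, for the E-box bound by SNAI and ZEB factors (CAGGTG or CACCTG) and for the grainyhead motif (AACNNGTT). The stretches of CLDN1 (chr3:190322447-190322696, minus strand) and CGN (chr1:151511137-151511386, plus strand) run over the 250 bases before the RefSeq start. That of CLDN7 (chr17:7262475-7262503, minus strand) runs over 29 bases around the second of its 2 starts. The counted CGN gene begins further upstream, at 151510510, so the CGN stretch lies within it. The CLDN1 stretch overlaps the counted CLDN1 gene, which reaches 190322475, and the first bases of CLDN16, which begins at 190322541. Capitals mark a motif match or, in CLDN7, also the single first base of the transcript.
CLDN1: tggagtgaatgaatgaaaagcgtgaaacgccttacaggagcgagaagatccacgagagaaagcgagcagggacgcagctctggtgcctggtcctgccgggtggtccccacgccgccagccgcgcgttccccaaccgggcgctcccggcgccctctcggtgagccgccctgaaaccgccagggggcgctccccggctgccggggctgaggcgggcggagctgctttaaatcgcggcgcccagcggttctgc
CGN: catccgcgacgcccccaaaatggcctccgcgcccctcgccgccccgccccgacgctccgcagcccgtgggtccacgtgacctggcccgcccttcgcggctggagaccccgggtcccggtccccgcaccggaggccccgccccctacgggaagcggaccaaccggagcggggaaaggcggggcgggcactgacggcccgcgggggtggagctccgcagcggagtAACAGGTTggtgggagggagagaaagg
CLDN7: atactCAGGTGcgcccCACCTGtccGccc

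The second window of CLDN7 held 5 E-box matches, which begin at positions -174, -135, -20, -9 and 6 from the start, and the pair at -20 and -9 is the one shown. At least 5 matches were found in 33 of the 35116 RefSeq windows, or 0.094%, while 20.6% held at least 1. The cut-off of 5 was itself the highest number in any window of the 8 genes, so the 0.094% describes a count picked from them. The windows of CLDN1, CLDN4, CLDN12 and MARVELD2 and the first window of CLDN7 held no match to any of these motifs. CGN held 1 grainyhead match at -27, a motif found in 3.52% of all windows. A heat shock element of 2 units, present in 13.5% of all windows, was found only in the fourth of the 4 TJP1 windows, at position 43, and no window of the 8 genes held one of 3 units, which 0.49% of all windows did. E-box matches were also found in both OCLN windows and in the first TJP1 window. A match is a run of letters and shows no binding.

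Levels were compared between genes per kilobase of counted exon. On the RPKM scale (CPM per kilobase of exon), WT cells had CLDN7 at 149.5 ± 2.47, CLDN1 at 110.5 ± 2.90 and CLDN4 at 77.1 ± 6.47, followed by F11R at 28.3 ± 0.975 and CGN at 20.7 ± 0.0907 (SD, n = 2). CLDN12 came next at 5.91 ± 0.723. In HSF1-pLVX cells CLDN7 was still first at 45.2 ± 3.51, but F11R at 28.6 ± 1.01 stood second, above CLDN1 at 25.2 ± 2.30 and CLDN4 at 24.3 ± 4.85, which overlapped each other. CLDN12 at 5.34 ± 0.185 stood above CGN, which was at 3.36 ± 0.578. The neighbours in each order did not overlap except CLDN1 with CLDN4 in HSF1-pLVX cells and MARVELD2 with TJP1 in both variants. TJP1, MARVELD2 and OCLN were below 0.6 RPKM, and their place depends on the length used. The CPM of the whole row was also divided by kilobases of unique 76-base stretches alone, a choice made after seeing the data. TJP1 was then at 26.9 in WT and 15.3 in HSF1-pLVX cells and MARVELD2 at 12.7 and 5.21. These are not measured levels, since they assume that no read on a repeated stretch was counted, which is not known.

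Over all claudins, of which 24 were listed, the summed level was 340 and 358 RPKM in WT libraries and 112 and 96.3 RPKM in HSF1-pLVX libraries. CLDN7 kept its share of this sum, at 43.5 and 42.3% in WT and 42.5 and 44.3% in HSF1-pLVX cells. CLDN1 took 31.9 and 31.5% in WT and 23.9 and 24.5% in HSF1-pLVX cells, and its 4 values did not overlap between variants. CLDN4 remained between 21.3 and 24.7% in all libraries. CLDN12 took 1.59 and 1.79% in WT and 4.88 and 5.41% in HSF1-pLVX cells, although its own level was not called. The make-up of the claudin transcripts was thus led by the same 3 genes in both variants, with CLDN1 and CLDN4 close to each other in HSF1-pLVX cells.

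**Figure D4:**
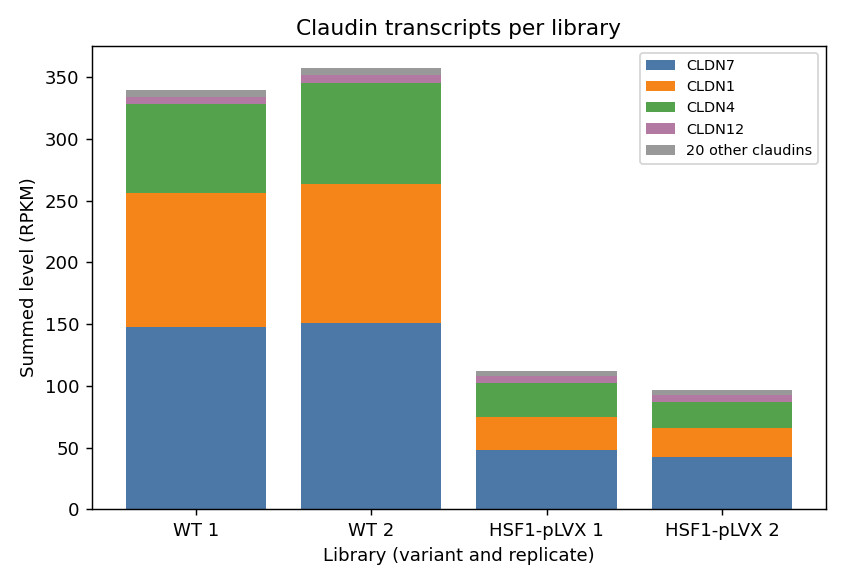
Summed level of all listed claudins in each of the 4 libraries, in RPKM, stacked by gene from 0. The WT libraries reach 340 and 358 RPKM and the HSF1-pLVX libraries 112 and 96.3 RPKM, with CLDN7, CLDN1 and CLDN4 making up most of each bar.

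The 20 other claudins were mostly not expressed to a level that could be tested. In 7 of them no library exceeded 3 counts, and 5 were tested. CLDN23 was counted 87 and 77 times in WT and 38 and 28 times in HSF1-pLVX cells, a log2 fold change of -1.58 (SE 0.271, edgeR adjusted p = 1.88e-08). CLDN16, the neighbour of CLDN1 and a claudin of magnesium transport in the kidney, had 23 and 29 counts in WT and 16 and 9 in HSF1-pLVX cells (log2 fold change -1.32, SE 0.416, edgeR adjusted p = 0.00297). CLDN9, with 14, 22, 13 and 8 counts in the same order, passed narrowly (log2 fold change -1.02, SE 0.459, edgeR adjusted p = 0.0414). These 3 of the 5 tested were lower, beside 32.7% of all tested genes. CLDN15, a claudin that forms cation pores, held 99 and 103 counts in WT and 157 and 124 in HSF1-pLVX cells, with an adjusted p of 0.347, and CLDN3 had 6 to 15 counts per library and an adjusted p of 0.179. CLDN8 was too low to be tested, at 9, 2, 18 and 9 counts.

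Of 11 further membrane proteins of the junction, 8 were tested, 5 were lower and 2 higher, beside 32.7 and 32.5% of all tested genes. LSR and ILDR1, the angulins that bring tricellulin to the corners where 3 cells meet, were both lower. LSR had 10218 and 10108 counts in WT and 3768 and 2919 in HSF1-pLVX cells (log2 fold change -1.87, SE 0.130, edgeR adjusted p = 1.7e-45), and ILDR1 fell from 113 and 138 counts to 20 and 12 (log2 fold change -3.22, SE 0.282). CRB3, an apical polarity protein, was lower by a log2 fold change of -2.46 (SE 0.133), CXADR, the adenovirus receptor, by -1.22 (SE 0.143) and MARVELD3, a relative of occludin, by -1.02 (SE 0.121). JAM3, junctional adhesion molecule C, moved the other way, from 1 and 5 counts in WT to 81 and 62 in HSF1-pLVX cells (log2 fold change 4.26, SE 0.460, edgeR adjusted p = 1.93e-19), while F11R of the same family was not called. MARVELD1 was slightly higher, by a log2 fold change of 0.37 (SE 0.116).

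Of 28 plaque and scaffold proteins other than TJP1 and CGN, 27 were tested. Of these 15 were lower and 6 higher, beside 32.7% lower and 32.5% higher of all tested genes. CGNL1, the paralogue of CGN, was lower, from 56 and 34 to 21 and 16 counts (log2 fold change -1.55, SE 0.347, edgeR adjusted p = 2.27e-05). AMOTL2, an angiomotin that binds YAP, fell from 6339 and 6150 to 1352 and 841 counts (log2 fold change -2.81, SE 0.122). USP53, MAGI1, PALS1 and PARD6A, a junction protein and 3 polarity or scaffold proteins, were lower by log2 fold changes of -1.86, -1.72, -1.36 and -1.22. AMOT, another angiomotin, had 25 counts over both WT libraries and 1 over both HSF1-pLVX libraries, a ratio of 30.1 with a 95% counting interval of 4.93 to 1240. TJAP1, a junction-associated protein of the Golgi, rose from 476 and 522 to 2244 and 1983 counts (log2 fold change 1.82, SE 0.107, edgeR adjusted p = 1.62e-62).

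Over the 59 other tight junction genes, 40 were tested, 23 were lower and 8 higher, beside 32.7% lower and 32.5% higher of all tested genes. Of these 16 were at least 2-fold lower and 2 at least 2-fold higher, beside 14.0 and 14.9% of all tested genes, and the median log2 fold change was -0.72.

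Of 18 partners and regulators of tight junctions, all were tested, 10 were lower and 3 higher, beside 32.7 and 32.5% of all tested genes, with a median log2 fold change of -0.56. EPCAM, which binds CLDN7 and CLDN1 and holds them at the membrane, fell from 3472 and 3793 to 2178 and 1282 counts (log2 fold change -1.37, SE 0.110, edgeR adjusted p = 4.05e-34). SPINT1, which inhibits the protease matriptase, was lower by a log2 fold change of -1.43. The grainyhead factors, known as activators of epithelial junction genes, were lower: GRHL1 by -1.71, GRHL3 by -1.32 and GRHL2 by -0.88 (SE 0.103, edgeR adjusted p = 9.42e-17). OVOL1, a zinc finger factor of epithelial cells, fell from 588 and 627 to 110 and 64 counts (log2 fold change -3.08, SE 0.150), and KLF4 was lower by -1.21. OVOL2, ELF3 and ESRP1 of the same list were not called, with log2 fold changes of -0.21, -0.14 and -0.02 (edgeR adjusted p = 0.343, 0.26 and 0.891).

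The listed factors of the epithelial-to-mesenchymal transition include the SNAI and ZEB factors, which are known repressors of claudins and occludin. All had positive log2 fold changes, and only SNAI2, ZEB2 and TWIST1 were called. SNAI2 rose from 652 and 619 to 1631 and 1351 counts, a log2 fold change of 0.97 (SE 0.105, edgeR adjusted p = 3.49e-19). ZEB2 went from 7 and 3 to 51 and 52 counts (log2 fold change 3.08, SE 0.447, edgeR adjusted p = 2.8e-11), and TWIST1 rose by a log2 fold change of 1.48 (SE 0.163). SNAI1 and ZEB1 were not called, with log2 fold changes of 0.45 (SE 0.391, edgeR adjusted p = 0.306) and 0.60 (SE 0.358, edgeR adjusted p = 0.13). ZEB2 thus remained at low counts, and SNAI2 was the one of these factors with the most reads.

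**Figure D5:**
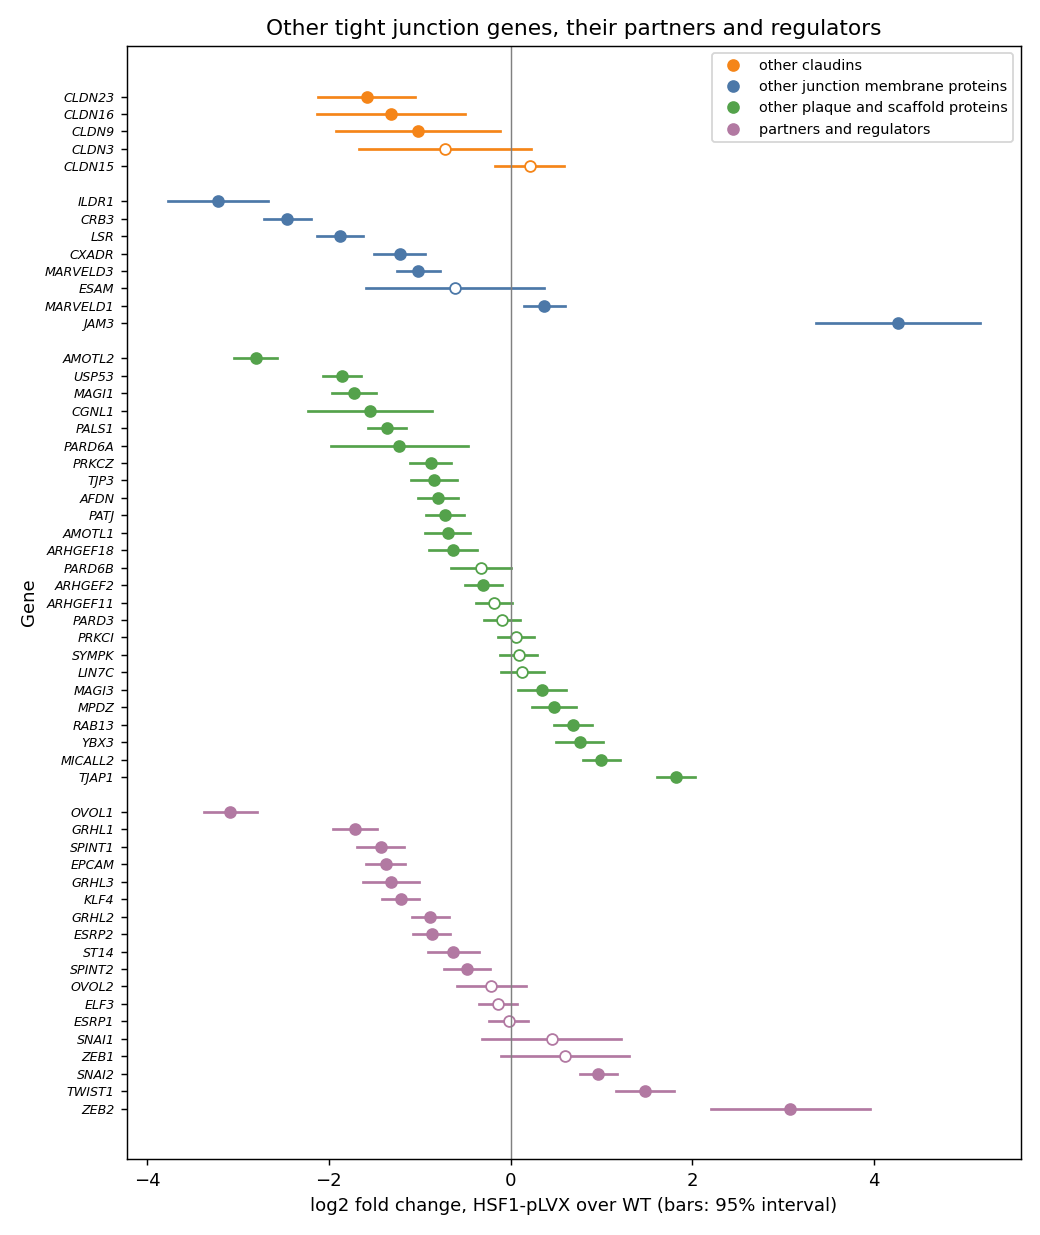
Log2 fold change of HSF1-pLVX over WT cells for the tested genes of the lists of other tight junction genes and of partners and regulators, without AMOT and 1 gene that is not reported here. Filled points passed an adjusted p of 0.05 in edgeR and open points did not. Most filled points lie below 0, and JAM3 and ZEB2 lie furthest above it.

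Neighbouring genes on the chromosomes moved in either direction. CLDN1 lies between CLDN16, which was lower, and P3H2-AS1, which was higher by a log2 fold change of 2.16. CLDN7 lies between ELP5 and YBX2, which were higher by log2 fold changes of 0.38 and 3.42. CLDN4 lies beside CLDN3 and METTL27, whose adjusted p-values were 0.179 and 0.538. CGN lies between POGZ, which was higher by a log2 fold change of 0.64, and the unnamed gene ENSG00000223861, which was lower by a log2 fold change of -2.48 (edgeR adjusted p = 4.79e-05).

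The ratio rule of the study asks for a ratio of HSF1-pLVX over WT above 2 or below 0.5 within both replicate numbers. It was applied to the normalized values in the authors' second table. The rule was met downwards by 4 of the 9 genes in their main rows, CLDN1, CLDN4, CLDN7 and CGN, beside 6.42% of the 22321 rows. The ratios were 0.241 and 0.21 for CLDN1, 0.371 and 0.255 for CLDN4, 0.314 and 0.282 for CLDN7 and 0.181 and 0.148 for CGN. TJP1 had ratios of 0.833 and 0.373 in its main row and of 0.435 and 0.467 in the row of its contig copy, which met the rule. MARVELD2 had 0.473 and 0.597, just outside it in replicate 2. With ratios of TMM-scaled CPM in place of the authors' values 5 of the 9 genes met the rule, MARVELD2 included, at log2 ratios of -1.51 and -1.06. F11R and CLDN12 ranged from 0.809 to 1.03.

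The genes whose pattern over the 4 libraries was most like the mean of the 8 tested genes were BMPR2, STAU2, OXTR, PPP2R3A and SH3TC2. Likeness was the Euclidean distance between log2 CPM values centred on their mean, over 9030 genes outside the lists with a mean of at least 10 CPM, and ranged from 0.0265 to 0.0728 for these 5. Their log2 fold changes lay between -1.38 and -1.31. With 4 libraries this distance measures little beyond the difference between the variants.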

How the data were processed

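RNA-seq counts of MCF10A cells were analysed for 2 WT and 2 HSF1-pLVX libraries, assigned to variants and replicate numbers by their labels. The authors aligned paired-end reads of 76 bases to hg38 and deposited raw counts per gene of GENCODE release 26. The submitters' processing notes name HISAT2 2.0.5, SAMtools 1.13, featureCounts 1.6.5 and DESeq2 1.32.0. Strand, overlap and multi-mapping settings are not given in the sources used here. The second deposited table holds log2-like values normalized by the authors, used for the ratio rule and to find the rows of a gene on other contigs. The part of these settings in the counts was not tested.

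Differences were fitted in R 4.3.3 by edgeR 4.0.16 with TMM scaling, filterByExpr, a quasi-likelihood test, the replicate number as a block and Benjamini-Hochberg adjustment. The block follows the study, which takes ratios within replicate number. With it the prior degrees of freedom were infinite, so very small p-values draw on the spread of many genes at a like level. Replicates of a variant differed by more than sampling noise, with a chi-square of 6.62 (WT) and 8.04 (HSF1-pLVX) per degree of freedom. A gene at 3 counts or fewer in all libraries was treated as at the floor, and counting intervals cover counting error only. With 2 against 2 libraries, an exact permutation test of a single value cannot go below 0.33 (two-sided) and was not used. The code was tested on simulated data. DESeq2 1.42.0, other scalings, no filter, no block, added contig rows, a 2-fold threshold and each library left out in turn were alternatives.

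The genes, lists and tests were chosen with earlier results of these data known. The genes named are the 9 of the list, HSF1, other claudins above 10 counts in a library, listed genes changed at least 2-fold, SNAI1, SNAI2, ZEB1, ZEB2, GRHL2 and EPCAM, and the 5 most alike. MARVELD1, OVOL2, ELF3, ESRP1, single marker genes and the chromosomal neighbours were named after their values were seen. One scaffold gene of the lists is counted with them but not reported here by itself.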

Additional observations from a re-analysis of the deposited data

How the results depend on the processing

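The log2 fold changes of CGN, CLDN1, CLDN4 and CLDN7 kept their direction and their call under every alternative run, and with each library left out in turn their ranges were -2.80 to -2.44, -2.22 to -2.03, -1.88 to -1.47 and -1.80 to -1.64. F11R and CLDN12 were called in none of them. Without the replicate block, edgeR adjusted p-values rose to 9.06e-11 for CGN, 2.58e-10 for CLDN1, 2.94e-08 for CLDN4 and 1.35e-09 for CLDN7. TJP1 lost its call with library size only (-0.82, adjusted p = 0.0506), with DESeq2 (-0.99, adjusted p = 0.0572), and without the replicate block (-0.77, adjusted p = 0.0532), and ranged from -1.81 to -0.21 with each library left out. MARVELD2 lost its call with DESeq2 (-1.30, adjusted p = 0.0691) and ranged from -1.42 to -1.16 with each library left out. The cause was not tested. The number of the 9 genes called lower was 6, and 4 with DESeq2 and 5 with library size only or without the replicate block. Fits with a library left out were made without the block, and there the lone library of a variant is assumed to vary like the others. OCLN passed the filter in some of these fits. Its log2 fold change was -1.60 without WT replicate 1, -2.40 without HSF1-pLVX replicate 1 and -0.63 without HSF1-pLVX replicate 2. Asking for at least a 2-fold change left 2 of the 8 other tight junction genes called higher and 6 of the 10 partners and regulators called lower. The replicate block changed no other call of the 9 genes. Same-numbered libraries did not deviate together (correlation of deviations -0.029), so the numbers are not shown to pair the libraries. Low counts limit OCLN, MARVELD2 and TJP1, which held between 2 and 122 counts per library. The part of depth or of repeated sequence in these low counts was not tested.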
